A study of Homo sapiens with 5 samples.

Results

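Cells of week 8 were set against undifferentiated cells of the same line, gene by gene, over all genes on the array. The comparison rests on 2 of the 5 arrays of the series, the array labelled week 8 of differentiation toward corneal epithelial cells and the array of undifferentiated cells at week 0. Both came from H9 cells, a standard line of human embryonic stem cells, kept in E6, a defined medium that was renewed daily until harvest. No other agent, genetic change or sort is named in the labels. Total RNA was prepared with Trizol and a column clean-up that included DNase, and was turned into biotin-labelled cRNA for an Illumina bead array. Arrays of weeks 2, 4 and 6 were used for normalization and to place the 2 arrays within the course. Each week had 1 array, marked in the labels as a non-replicate, so each value below is a single reading without an SD, and the spread between cultures was not measured. No test was possible. A gene is called higher or lower here where the arrays differed by at least 2-fold and the brighter array was above background, at a detection p under 0.01. The arrays of week 8 and week 0 had 18358 and 16993 of 47317 probes above background, and their median signal exceeded that of the remaining probes 2.72 times at week 8 and 2.90 times at week 0.

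Embryonic stem cells divide quickly, with a short first gap phase, and hold open a network of transcription factors that keeps every germ layer within reach. When such cells leave that state toward the surface of the eye, they pass through ectoderm. The corneal epithelium is a stratified sheet of basal cells carrying the keratins KRT5 and KRT14, under flattened cells that carry KRT3 and KRT12, and it lies on a stroma of collagen made by cells of neural crest origin. Lens, retina, pigment epithelium and conjunctiva form beside it. Cells that differentiate usually slow their division, and the genes of DNA replication and of mitosis then fall as separate groups with different promoter sites, E2F sites for replication and cell cycle homology regions for mitosis.

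The label was checked against defining markers. Of 6 markers of pluripotent stem cells, 3 were above background at week 8 and 6 at week 0, and their summed normalized intensity was 1091 at week 8 and 36895 at week 0. POU5F1, NANOG and LIN28A were the members below background at week 8. Of 7 markers of corneal epithelium, KRT5, KRT14, KRT15 and PAX6 were above background at week 8 and none at week 0, each on its brightest probe. Their sums were 8950 at week 8 and 220 at week 0. Another PAX6 probe was above background on both arrays, at 8.45 at week 8 and 8.39 at week 0. KRT3, KRT12 and ALDH3A1, which mark differentiated corneal epithelium, were below background on both arrays, so the basal keratins and PAX6 were the corneal markers detected. The week 8 array also carried markers of other cells. All 6 markers of stroma or fibroblasts were above background, with a summed intensity of 42918 at week 8 and 2194 at week 0. All 4 pigment cell markers with a named probe were above background at week 8, with sums of 29675 at week 8 and 1317 at week 0. For lens 5 of 6 were above background, with sums of 8052 at week 8 and 271 at week 0, and for neurons 6 of 6, with sums of 7326 at week 8 and 2225 at week 0. Of the neuron markers 5 were already above background at week 0, and DCX and NEFL were not called. Blood markers (5) and trophoblast markers (4) were below background on both arrays, and of 4 endothelial markers TEK alone was above it. In such a bulk sample, more cells of a type and more RNA per cell cannot be told apart, nor can fewer cells and less RNA per cell. The part of these cells in the gene values below was not tested.

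Promoter bases of 8 genes called at week 8 are shown because the cell division and squamous genes described below differed in the short sequences before their starts. They run 5′ to 3′ on the gene's own strand, end at the last base before the start, and come from RefSeq on GRCh38.p14. In the first 3, genes of mitosis that fell, capitals mark TTTGAA, the core of the cell cycle homology region, and CCAAT, the box bound by NF-Y, on either strand. In ORC1 and POLE2, replication genes that fell, capitals mark TTNGCGC, the core of an E2F site, on either strand. Only the motifs named for a group are marked. The bases shown for CDK1 also hold an unmarked E2F core, and those for ORC1 an unmarked CCAAT on the other strand. In the last 3, squamous genes that rose, capitals mark TGANTCA, a loose pattern for the site of AP-1.
CCNB2, chr15:59105046-59105145, plus strand: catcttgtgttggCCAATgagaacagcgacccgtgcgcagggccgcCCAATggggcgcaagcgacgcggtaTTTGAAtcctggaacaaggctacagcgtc
CDK1, chr10:60778161-60778330, plus strand: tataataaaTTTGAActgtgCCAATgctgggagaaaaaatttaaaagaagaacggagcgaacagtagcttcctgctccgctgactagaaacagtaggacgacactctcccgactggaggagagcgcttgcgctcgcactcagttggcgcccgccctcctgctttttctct
BUB1B, chr15:40160969-40161068, plus strand: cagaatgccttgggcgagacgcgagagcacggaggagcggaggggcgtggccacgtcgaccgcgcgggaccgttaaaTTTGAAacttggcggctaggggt
ORC1, chr1:52404424-52404523, minus strand: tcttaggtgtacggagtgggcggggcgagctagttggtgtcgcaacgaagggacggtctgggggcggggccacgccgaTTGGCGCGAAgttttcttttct
POLE2, chr14:49688215-49688314, minus strand: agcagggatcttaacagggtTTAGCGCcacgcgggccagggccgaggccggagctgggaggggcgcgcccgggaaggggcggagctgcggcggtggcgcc
SPRR1A, chr1:152983951-152984080, plus strand: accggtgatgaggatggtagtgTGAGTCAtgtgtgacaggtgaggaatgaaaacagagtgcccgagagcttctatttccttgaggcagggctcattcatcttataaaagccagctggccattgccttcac
SPRR3, chr1:153001559-153001748, plus strand: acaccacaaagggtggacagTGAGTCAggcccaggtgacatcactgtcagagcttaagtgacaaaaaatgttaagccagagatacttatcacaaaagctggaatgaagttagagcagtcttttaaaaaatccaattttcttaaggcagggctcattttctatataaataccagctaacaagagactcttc
SERPINB5, chr18:63476798-63476957, plus strand: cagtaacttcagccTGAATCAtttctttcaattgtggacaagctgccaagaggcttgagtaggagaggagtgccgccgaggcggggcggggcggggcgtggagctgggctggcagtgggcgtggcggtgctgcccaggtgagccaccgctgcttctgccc

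Of 12333 genes above background on either array, 2068 were higher at week 8 by 2-fold or more (16.8%) and 1900 lower by as much (15.4%), so 32.2% were called. These shares are the background for every count below. Large changes ran mostly upward. At least 4-fold differences numbered 765 higher and 405 lower, at least 16-fold 145 and 21, and at least 32-fold 45 and 10. For 699 of the higher genes the week 0 array was below background, and for 268 of the lower genes the week 8 array was, so their folds are lower bounds, written as at least. Among the 9761 genes above background on both arrays the split turned, with 1369 higher and 1632 lower. There the middle of the distribution was narrow, since 4534 genes (46.5%) differed by less than 1.5-fold and percentiles 5 and 95 of the log2 difference were -1.76 and 1.85. The median log2 difference over all genes was -0.05, and -0.21 when the 75th percentile of each array was set equal and quantiles were not matched. Under that scaling 1825 genes were higher and 2528 lower, and higher genes made up 41.9% of the calls against 52.1% otherwise. Of the 2068 genes called higher 1817 kept that call under it, as did 1900 of the 1900 called lower.

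**Figure D1:**
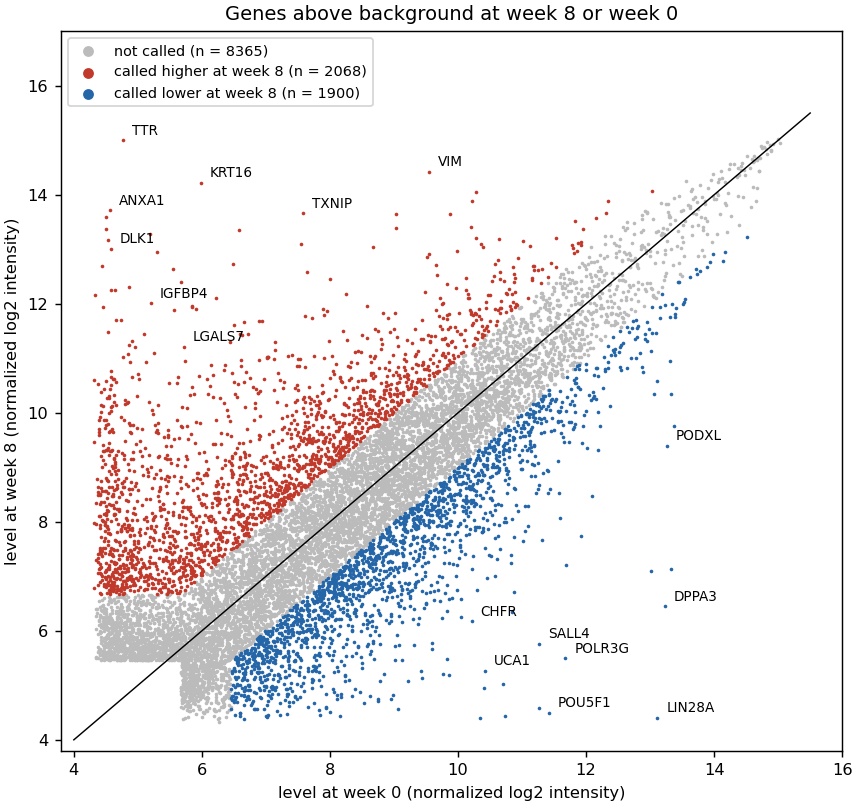
Normalized log2 intensity at week 8 against week 0 for each gene above background on either array, 1 point per gene and 1 array per week. The line marks equal values, and of 12333 genes 2068 were called higher and 1900 lower. Points are drawn at their own readings, so a gene below background on 1 array can lie over 2-fold from the line without being called.

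Other probes of the same gene gave a measure of how far a call rests on 1 probe. Where a gene had several other probes above background on both arrays, only the first in the deposited order was counted. Of 312 genes called higher that had another probe above background on both arrays, 244 (78.2%) moved in the same direction on it, 139 passed 2-fold there too, and 10 passed 2-fold the other way. Of 333 genes called lower, 304 (91.3%) moved the same way, 221 passed 2-fold and 11 went the other way by 2-fold. Among named genes not marked so where they appear, GRB10, HSPD1 and LAMA1, called lower, had another probe that was not called, CENPA, SLC38A1 and SOX2, not called, had one that was lower, and GRHL1, not called, one that was higher. A further probe of COL2A1 rose too, by 3.43 on the log2 scale. Calls also followed the level of a gene. Among genes above background on both arrays, split by level into 4 bins, 8.73% were higher and 15.6% lower in the dimmest, in the next 17.8% and 20.7%, in the one above 17.8% and 16.9%, and in the brightest 11.7% and 13.6%.

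The arrays between place these genes within the course. The median log2 level of the 2068 higher genes was 6.57, 7.87, 8.28, 8.76 and 8.94 at weeks 0, 2, 4, 6 and 8. For the 1900 lower genes it was 8.81, 7.92, 7.73, 7.33 and 7.04 at the same weeks. Genes that were not called had medians between 7.81 and 7.86 at weeks 8 and 0. Because weeks 8 and 0 chose these genes, their order at those weeks is fixed by the choice, and only the weeks between are a description.

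Pluripotency genes were lower in most cases. Of 17 measured members of the list, 14 fell, 3 were not called and none rose (median difference -3.52). The chromatin protein gene DPPA3 read a log2 level of 6.45 at week 8 and of 13.23 at week 0, the largest decrease among genes above background on both arrays, at 110-fold. The deubiquitinase gene USP44 fell at least 37.9-fold and the zinc finger gene ZFP42 fell 18.3-fold, with levels of 7.73 at week 8 and 11.93 at week 0. SOX2, which also serves the neural and lens lineages, read 11.19 at week 8 and 12.06 at week 0 and was not called. Of 14 measured surface and metabolic markers of stem cells, 10 fell, 3 were not called and GLDC, an enzyme of glycine breakdown, rose at least 2.60-fold. PODXL, which carries the sugar epitopes used to recognise stem cells, kept a level of 9.39 at week 8, against 13.26 at week 0. The serine and folate enzymes PHGDH, SHMT2 and MTHFD2 fell 2.32-fold, 2.32-fold and 5.43-fold. PROM1 read 11.04 at week 8 and 11.41 at week 0 and CD9 9.95 at week 8 and 9.15 at week 0, and neither was called.

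Genes of DNA replication were lower as a group. Of 38 measured members 29 fell, 9 were not called and none rose (median -1.87). The helicase subunits MCM4, MCM5, MCM2 and MCM3, which open the double helix at origins, fell 11.9-fold, 11.1-fold, 5.37-fold and 5.10-fold. MCM3 still read 10.96 at week 8, against 13.31 at week 0. The origin-binding gene ORC1 fell 6.95-fold, reading 5.54 at week 8 and 8.34 at week 0, and at week 8 the lowest value above background was 5.46. POLE2 of DNA polymerase epsilon fell 9.41-fold, the primase gene PRIM1 8.84-fold, and RRM2, which makes deoxyribonucleotides, 7.87-fold.

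Mitosis genes showed the lowest median of the cell division lists, at -2.35, with 28 of 34 measured members lower, none higher and 6 not called. SPC25, a kinetochore subunit, fell 9.82-fold, to 5.71 at week 8 against 9.01 at week 0. The checkpoint kinases BUB1, TTK and BUB1B fell 8.85-fold, 6.92-fold and 6.67-fold. The kinase AURKB fell 7.31-fold, and the spindle factor TPX2 fell 6.48-fold. CDK1, the kinase that starts mitosis, read 9.75 at week 8 and 12.22 at week 0 and fell 5.54-fold, and its cyclins CCNA2, CCNB1 and CCNB2 fell 7.07-fold, 5.35-fold and 4.90-fold. CDK1 and CCNB2 were thus still above background at week 8. Among repair genes 8 of 17 measured fell, 9 were not called and none rose (median -0.92). The helicase gene BLM fell 7.17-fold, the recombination gene RAD54L 5.78-fold and the checkpoint kinase gene CHEK1 3.86-fold, while PARP1, a sensor of broken DNA, fell 2.97-fold and still read 11.46 at week 8, against 13.03 at week 0.

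Of 22 measured CDK inhibitors and p53 targets, 10 rose, 1 fell and 11 were not called, with a median of 0.74. CDKN1A, the inhibitor p21, read 13.10 at week 8 and 7.55 at week 0 and rose 47.0-fold, whereas its other probe differed by only 1.16 on the log2 scale. CDKN2B rose at least 9.70-fold, the antiproliferative gene BTG1 rose 7.56-fold, to 13.20 at week 8 against 10.29 at week 0, and the cyclin-like gene CCNG2 rose 5.40-fold. CDKN1B, the inhibitor p27, rose 2.54-fold. The stress gene GADD45A rose 2.75-fold and PLK2 at least 4.26-fold. CDKN2A read 8.60 at week 8 and 8.41 at week 0 and was not called, and CDKN1C was below background on both arrays. The 1 member that fell, CDKN2D, read 7.53 at week 8 and 9.56 at week 0, but its other probe differed by 1.70 in the opposite direction.

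**Figure D2:**
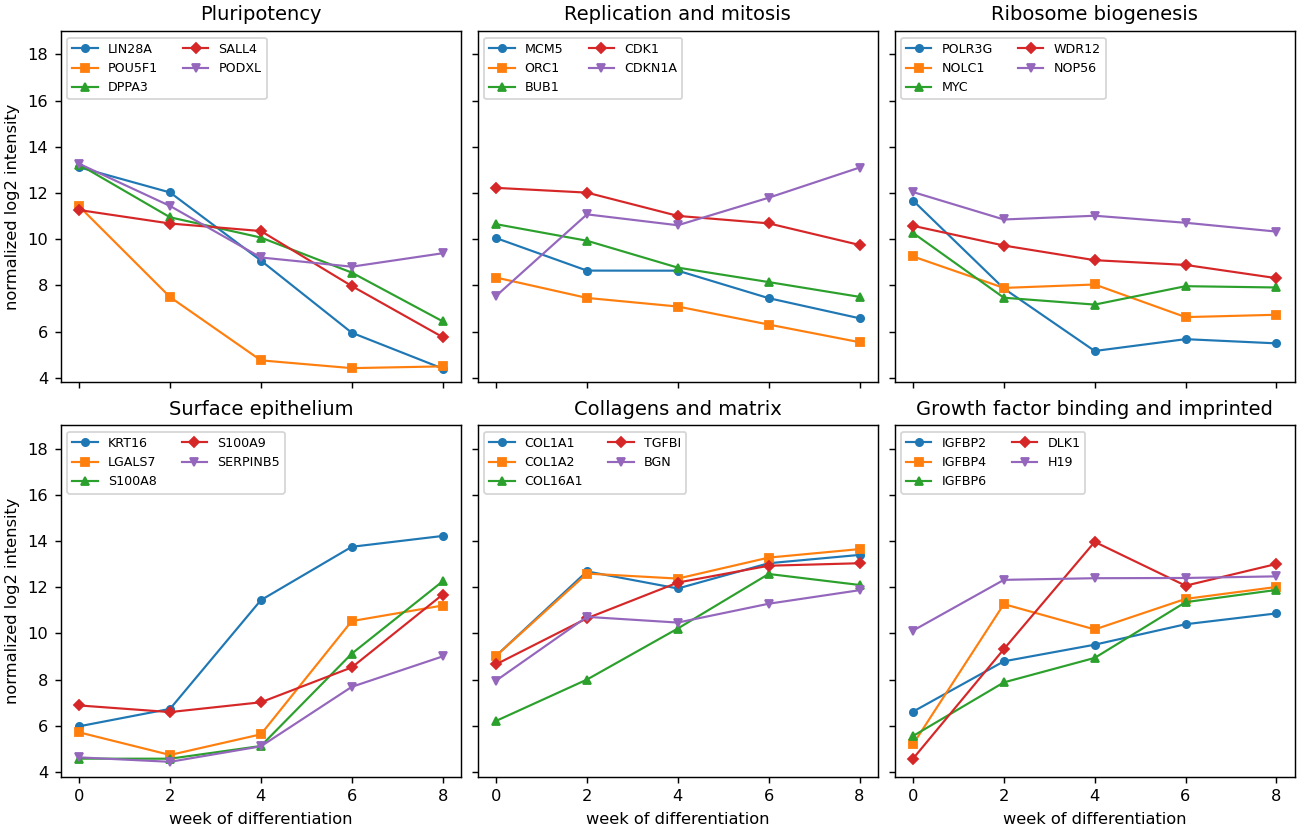
Normalized log2 intensity of selected genes at weeks 0, 2, 4, 6 and 8, 1 array per week, drawn in panels by gene group, with readings below background at their own value. CDKN1A stands at 13.10 at week 8, and CDK1 and MCM5 at 9.75 and 6.58, their lowest of the 5 weeks.

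The promoters of these lists held different motifs. Promoters were 250 bases before to 50 after the start, read on both strands, and 9896 of the 12333 genes matched one. TTTGAA was present in 18 of 27 mitosis promoters (66.7%), in 1 of 34 replication promoters (2.94%), in 10.4% of all tested genes and in 15.4% of all 27305 RefSeq promoters. Within 50 bases of the start, where BUB1B and CCNB2 carry it, it was present in 13 of 27 mitosis promoters (48.1%) and in 2.94% of tested genes. The E2F core TTNGCGC was present in 19 of 34 replication promoters (55.9%), in 4 of 27 mitosis promoters (14.8%), in 12.1% of tested genes and in 7.93% of RefSeq promoters. CCAAT was present in 21 of 27 mitosis promoters (77.8%) and 20 of 34 replication promoters (58.8%), against 36.4% of tested genes and 35.7% of RefSeq promoters. Members called and members not called both held the motifs. TTTGAA was present in 14 of 22 mitosis genes called lower (63.6%) and in 4 of 5 not called (80.0%), which were CDC20, CENPA, PRC1 and CDCA8. The E2F core was present in 14 of 26 replication genes called lower (53.8%) and in 5 of 8 not called (62.5%). Over all genes the shares were closer, with TTTGAA in 11.7% of higher and 12.6% of lower genes, and the E2F core in 9.20% of higher and 14.2% of lower. The lists were drawn from knowledge of these genes, the motifs were chosen because they are known for these lists, and a match is a description of the letters, not of binding.

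**Figure D3:**
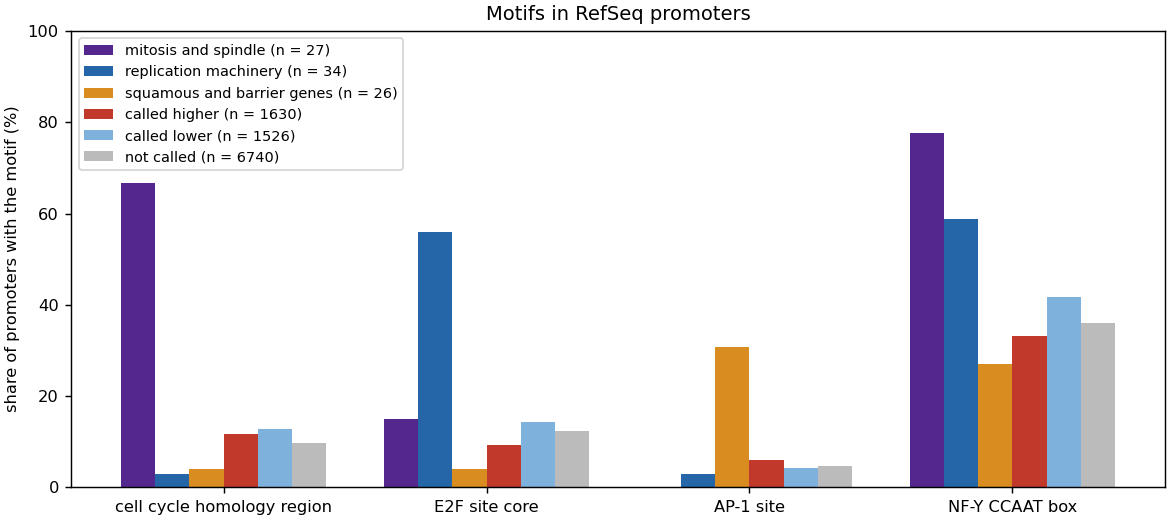
Percent of promoters that hold each motif, for 3 gene lists and for all genes called higher, called lower or not called, over 250 bases before to 50 after the start on both strands. TTTGAA stands at 66.7% for mitosis and 12.6% for all genes called lower, and the E2F core at 55.9% for replication and 14.2%. The loose AP-1 pattern TGANTCA, drawn as AP-1 site, stands at 30.8% for squamous genes and 5.83% for all genes called higher.

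Ribosome biogenesis had the largest share of lower members among the lists. Of 19 measured members 18 fell, 1 was not called and none rose (median -1.76). POLR3G, a polymerase III subunit of stem cells, read 5.49 at week 8 and 11.67 at week 0 and fell 72.6-fold. MYC and MYCN, which drive the making of ribosomes, fell 5.14-fold and 3.72-fold, and MYCN still read 10.25 at week 8, against 12.15 at week 0. The nucleolar factors NOLC1, WDR12 and MRTO4 fell 5.75-fold, 4.81-fold and 4.08-fold, and the snoRNP proteins NOP56 and NOP58 fell 3.27-fold and 3.25-fold. CACGTG, the E-box letters, was present in 5 of 13 promoters of the list (38.5%), in 9.78% of tested genes and in 7.43% of RefSeq promoters. The proteins of the finished ribosome stood apart from its makers. Of 26 measured ribosomal protein genes 24 were not called, with a median of 0.07 (-0.16 when the 75th percentiles were set equal), and RPLP1 read 14.46 at week 8 and 14.42 at week 0 and RPL3 14.23 at week 8 and 14.07 at week 0. The 2 that fell were RPL22L1 and RPL39L, paralogues of common subunits, by 3.46-fold and 3.18-fold. RPL22, the partner of RPL22L1, read 12.64 at week 8 and 11.69 at week 0, a difference of 0.95 that was not called. It was named after its value was seen. Of 22 measured respiratory chain genes 19 were not called, COX7A2 rose 2.12-fold and COXFA4L2 at least 2.03-fold (COX7A2 was not called, at 0.67, when the 75th percentiles were set equal), and CYCS, cytochrome c, fell 2.93-fold.

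Chromatin and splicing regulators were mixed. In the chromatin list 10 of 24 measured members fell, 3 rose and 11 were not called. The Polycomb genes EZH2, SUZ12 and EED read 13.01, 11.37 and 15.03 at week 8, against 12.85, 11.11 and 15.001 at week 0, and none was called, although both other probes of EZH2 were lower, by differences of -1.11 and -1.85. EED lay at the top of the measured range of levels. The other methyltransferase gene, EZH1, fell 4.12-fold and the ring finger gene BMI1 rose 5.13-fold. HMGA1, a DNA-bending protein of embryonic cells, fell 7.91-fold, TET1, which oxidises methylcytosine, 3.59-fold, and UHRF1, which guides maintenance methylation, 3.22-fold. The lamin genes crossed, since LMNA rose 3.24-fold, reading 9.84 at week 8 and 8.14 at week 0, while LMNB1 fell 3.34-fold, reading 7.93 at week 8 and 9.67 at week 0. HELLS read 5.48 at week 8 and 9.82 at week 0 on its brightest probe, but another probe differed by -0.22. Of 10 measured histone genes 3 rose (H2AC18, H2BC4 and H2BC12), H2AZ2 and MACROH2A2 fell and 5 were not called. In the splicing list 10 of 29 fell, 3 rose and 16 were not called. The muscleblind genes MBNL2 and MBNL1, known to favour adult splice forms, were higher, MBNL2 by at least 17.8-fold and MBNL1 by 2.74-fold. The SR proteins SRSF3, SRSF2 and SRSF1 fell 4.38-fold, 3.38-fold and 2.66-fold, and RBPMS fell 6.48-fold.

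Keratins made the highest median of the epithelial lists, at 3.36, with 10 of 11 measured members higher and none lower. KRT16, a keratin of activated and fast-renewing epithelium, read 14.22 at week 8 and 5.98 at week 0 and rose 302-fold, and a second probe of it gave a log2 difference of 5.08 or more. KRT5 and KRT14 read 12.31 and 9.78 at week 8, were below background at week 0, and rose at least 100 and 17.3 times. KRT80 rose at least 17.2-fold, KRT13, of mucosal epithelium, at least 12.6-fold, and KRT1, of epidermis, read 13.41 at week 8 and 10.21 at week 0 and rose 9.22-fold. KRT4 was below background on both arrays. KRT40, usually a hair keratin and not in the list, was among the 15 largest bounds, with at least 89.8-fold. Of 21 measured junction genes 9 rose and 12 were not called. PERP, a desmosome protein, read 12.71 at week 8 and 9.66 at week 0 and rose 8.30-fold, and DSP, which ties keratins to desmosomes, rose 5.17-fold. PKP1, CLDN4 and GJB6 were below background at week 0 and rose by at least 12.1-fold, 11.4-fold and 8.24-fold. DSG2 read 11.81 at week 8 and 12.08 at week 0 and CDH3 5.92 at week 8 and 5.94 at week 0, and neither was called, though another probe of DSG2 was higher by 2.23 or more. The junction median of 0.47 was -0.23 over the members above background on both arrays, so it rests on genes not detected at week 0.

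Genes of squamous maturation and the surface barrier were higher in 23 of 32 measured cases, lower in none and not called in 9, with a median of 1.80. The paired calcium-binding proteins S100A8 and S100A9, made by stressed or renewing epithelium, read 12.25 and 11.68 at week 8. S100A8 was below background at week 0 and S100A9 read 6.88, so the first rose at least 96.04-fold and S100A9 27.8-fold. S100A6 rose 15.4-fold, reading 12.19 at week 8 and 8.25 at week 0. SFN, the 14-3-3 protein of stratified epithelium, rose at least 23.2-fold, SBSN at least 10.8-fold and SERPINB5, a serpin of epithelium, at least 10.1-fold. Cornified envelope proteins differed among themselves, since SPRR3 rose at least 30.1-fold, SPRR1A 3.54-fold and SPRR1B at least 2.97-fold, while IVL, involucrin, read 9.65 at week 8 and 9.24 at week 0 and was not called. LGALS7, a lectin of stratified epithelium, rose 44.9-fold, reading 11.21 at week 8 and 5.72 at week 0. TGANTCA, the loose AP-1 pattern marked above in SPRR1A, SPRR3 and SERPINB5, was present in 8 of 26 promoters of the list (30.8%). The pattern was present in 4.76% of tested genes and in 7.76% of RefSeq promoters. It was present in 7 of 19 members called higher (36.8%) and in IVL, 1 of the 7 not called. The gene FOS, a subunit of AP-1, read 9.20 at week 8 and 5.76 at week 0 and rose 10.9-fold, FOSL2 rose at least 5.08-fold and JUNB, at 13.89 at week 8 and 12.34 at week 0, rose 2.93-fold, while FOSL1 read 6.15 at week 8 and 6.23 at week 0 and was not called. Of 18 measured immediate early genes 7 rose and none fell.

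Of 24 measured epithelial transcription factor genes 15 rose, OVOL2 and BNC2 fell and 7 were not called. TFAP2A and TFAP2C, of early ectoderm, read 11.69 and 9.41 at week 8, and TFAP2A rose at least 65.1-fold and TFAP2C 4.97-fold. MSX1 rose at least 42.7-fold, KLF4 at least 14.5-fold, the epidermal factor ZNF750 at least 13.4-fold and the junction regulator GRHL2 by a bound of 7.17-fold. GRHL1, its paralogue, read 6.48 at week 8 and 6.03 at week 0 and was not called. Both epithelial splicing factors were lower, ESRP1 by 3.62-fold and ESRP2 by 2.04-fold, and OVOL2, which represses mesenchymal genes, fell 4.29-fold, so these epithelial regulators ran against the direction of the squamous genes.

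Collagens were higher in 18 of 25 measured cases and lower in COL22A1 alone, with a median of 2.56. COL1A1 and COL1A2, the chains of type I collagen of corneal stroma, skin and bone, read 13.40 and 13.65 at week 8 against 9.03 and 9.03 at week 0, and rose 20.6-fold and 24.5-fold together. COL2A1, of cartilage and the vitreous, was below background at week 0 and rose at least 244-fold, to 13.60. COL16A1 rose 59.0-fold, COL19A1 30.8-fold, the basement membrane chain COL4A6 14.9-fold, COL6A3 14.3-fold and COL8A1, of the corneal endothelial basement membrane, 14.2-fold. COL3A1 read 10.71 at week 8 and 10.07 at week 0 and was not called. Stroma markers were high at week 8 as given above, and their part in these values was not tested.

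Other matrix genes were higher in most cases. Of 32 measured glycoproteins and proteoglycans 19 rose, OLFML3 fell and 12 were not called. LUM, lumican, a proteoglycan that spaces corneal collagen, read 12.70 at week 8 and rose at least 131-fold. DCN, decorin, read 13.17 at week 8 and rose at least 181-fold on its brightest probe, but a second probe differed by 0.37. KERA, keratocan, the marker of corneal keratocytes, read 5.92 at week 8 and was not called. TGFBI, a matrix protein of corneal epithelium and stroma, read 13.04 at week 8 and 8.66 at week 0 and rose 20.7-fold. BGN, biglycan, rose 15.05-fold, MFAP4 13.03-fold and POSTN at least 12.9-fold. Of 27 genes that process matrix 16 rose and PCOLCE2 fell. MMP10, a stromelysin, rose at least 30.9-fold, the inhibitor TIMP3 at least 11.8-fold, and the protease PLAU 5.87-fold. The collagen-modifying enzymes P4HA2 and PLOD1 rose 9.78-fold and 4.36-fold, and LOX, which crosslinks collagen, at least 4.10-fold. MMP9 rose 2.98-fold, whereas MMP2, the gelatinase of stroma, was below background on both arrays. Of 22 measured integrin and laminin genes 6 rose, LAMA1 fell and 15 were not called, with CD44, a hyaluronan receptor, higher by at least 29.5-fold and LAMB1 by 5.38-fold. Among cytoskeleton genes 10 of 31 rose and 3 fell. VIM, vimentin, read 14.42 at week 8 and 9.55 at week 0 and rose 29.3-fold, with 5.59 on the log2 scale at another probe. ACTA2, smooth muscle actin, rose 21.9-fold and ACTG2 7.04-fold, while ACTC1, cardiac actin, at 9.59 at week 8 and 8.73 at week 0, was not called and ACTA1, skeletal actin, fell 3.23-fold. ANXA1 and ANXA2, which bind membranes on calcium, read 13.71 and 13.65 at week 8, and ANXA1 rose at least 264-fold and ANXA2 13.7-fold.

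**Figure D4:**
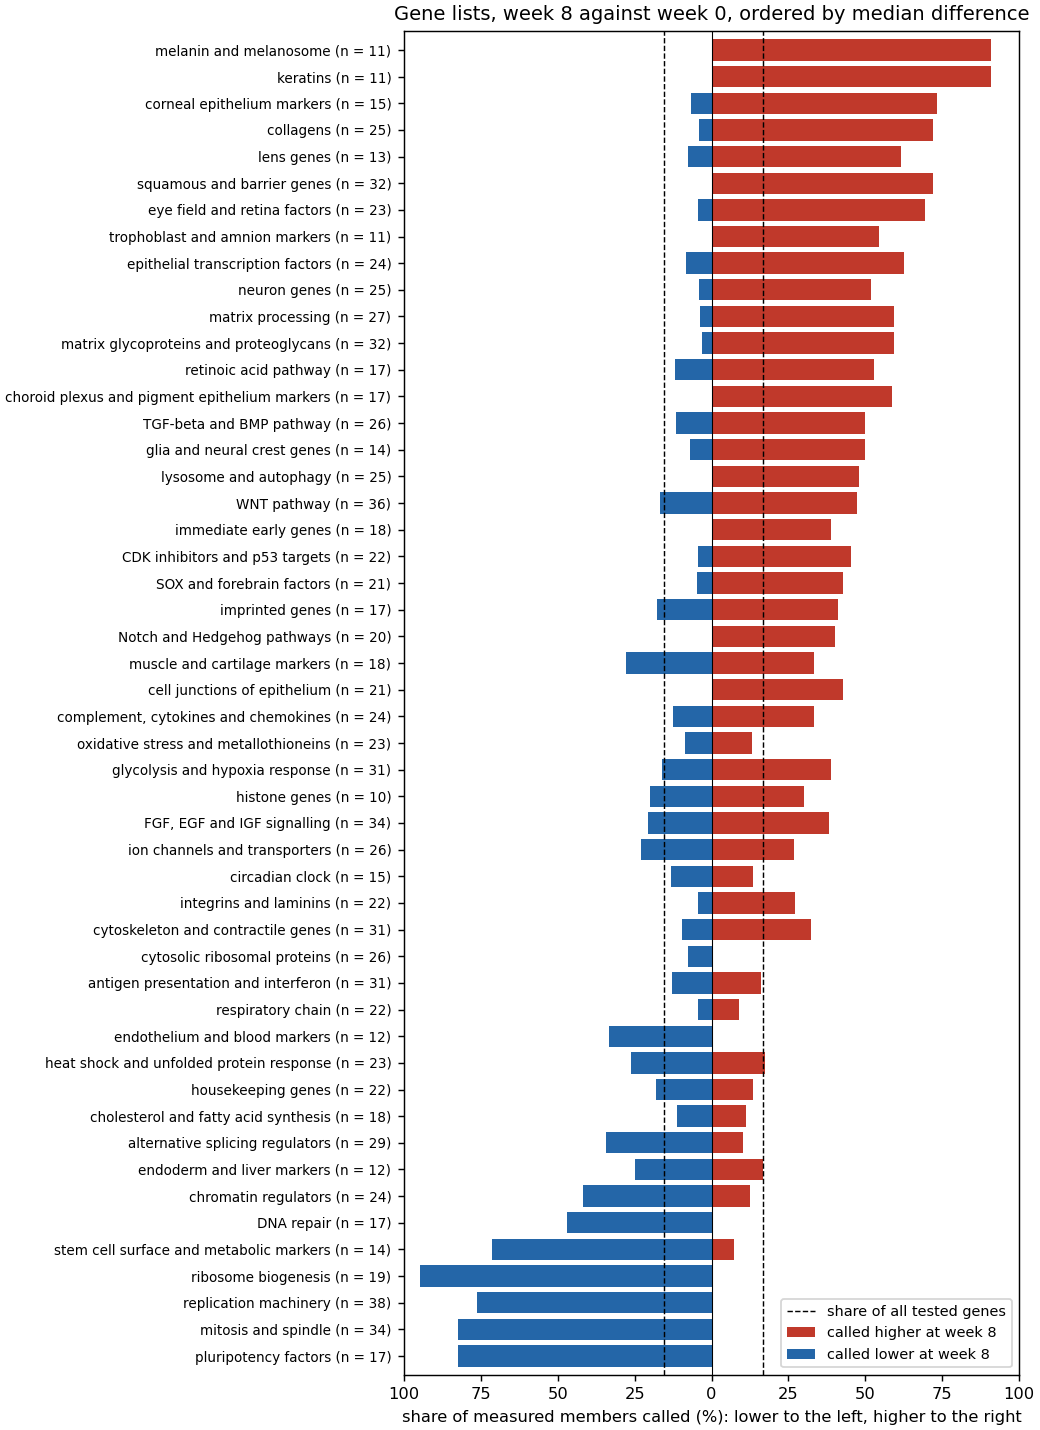
Share of the measured genes of each list, in percent, called higher (to the right) or lower (to the left) at week 8 against week 0, 1 row per list of at least 10 measured genes, 1 array per week. Dashed lines mark all tested genes, of which 16.8% were higher and 15.4% lower, while 10 of 11 keratins were higher and 18 of 19 ribosome biogenesis genes lower.

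Of 34 measured FGF, EGF and IGF genes 13 rose, 7 fell and 14 were not called. IGFBP5, IGFBP4, IGFBP6 and IGFBP2, secreted proteins that hold IGF, read 13.36, 12.01, 11.88 and 10.87 at week 8. IGFBP5 and IGFBP2 read 6.58 and 6.62 at week 0 and rose 110.1-fold and 19.05-fold, and IGFBP4 and IGFBP6 rose at least 81.2 and 74.2 times. A further probe of IGFBP5 differed by only 1.34 on the log2 scale. IGFBP1 rose 6.45-fold, while IGFBP3 read 9.54 at week 8 and 9.47 at week 0 and was not called, though its other probe differed by 4.40. The ERK phosphatase genes DUSP6 and DUSP4, feedback targets of FGF signalling, were lower, DUSP6 by at least 8.07-fold and DUSP4 by 4.60-fold. FGF2, the factor that stem cell media supply, fell at least 2.94-fold and ETV4 2.47-fold. FGF9 rose at least 15.8-fold and PDGFRA, a receptor of mesenchymal cells, at least 34.4-fold. FGFR3 read 11.83 at week 8 and 9.01 at week 0 on its brightest probe, but another probe gave a log2 difference of -3.33 or below.

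WNT pathway genes split into 17 higher, 6 lower and 13 not called among 36 measured. WLS, which carries WNT proteins to the surface, read 12.72 at week 8 and 6.48 at week 0 and rose 75.6-fold, the ligand WNT5A rose at least 11.2-fold, and the R-spondins RSPO2 and RSPO3, which amplify the signal, rose at least 27.2 and 19.2 times. LEF1, a nuclear effector, rose 16.5-fold. The secreted antagonists split, since DKK3 rose 5.83-fold, reading 12.36 at week 8 and 9.82 at week 0, while SFRP1 and SFRP2 fell 6.52-fold and 2.42-fold. In the TGF-beta and BMP list 13 of 26 rose and LEFTY1, ACVR2B and SKIL fell. BMP6 rose at least 5.47-fold, BMP7 4.77-fold, the inhibitory SMAD6 by 2.81 on the log2 scale, the antagonist GREM1 at least 4.82-fold and BAMBI, a decoy receptor, 4.18-fold, whereas BMP4 was below background on both arrays. LEFTY1, an inhibitor of Nodal signalling in stem cells, fell at least 3.89-fold. In the retinoic acid list 9 of 17 rose and 2 fell. CYP26A1, of retinoic acid breakdown, was lower, at 6.12 at week 8 and 8.51 at week 0, but another probe was higher by 1.97 or more on the log2 scale. The synthesis enzymes ALDH1A1, ALDH1A3 and RDH10 read 11.95, 10.97 and 11.02 at week 8, against 5.84, 6.89 and 7.04 at week 0. The receptors RXRB and RXRA rose 3.12-fold and 2.64-fold, and RARB rose at least 2.88-fold. In the Notch and Hedgehog list 8 of 20 rose and none fell. The largest rise was that of HES3, which read 11.93 at week 8 and 5.85 at week 0 (67.9-fold). The ligand JAG1 was higher by at least 7.48-fold and the effector HES4 by at least 23.2-fold. HES4 read 12.45 at week 4, above its 10.21 at week 8.

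Genes of neighbouring eye tissues were higher too. Of 23 measured genes of the eye field and retina 16 rose, SIX6 fell 3.08-fold and 6 were not called. LHX2 and SIX3, which pattern the optic vesicle, rose at least 65.9 and 13.98 times, RAX at least 6.50-fold and OTX1 at least 10.5-fold. PAX6 read 11.20 at week 8 and rose at least 46.4-fold on its brightest probe, but another probe differed by 0.06. TTR, made by choroid plexus, pigment epithelium and liver, read 15.001 at week 8 and 4.77 at week 0, and the bound of at least 644-fold was the highest of the comparison, against a log2 difference of 7.69 without background correction. SERPINF1, the pigment epithelium factor, rose 14.6-fold, reading 10.996 at week 8 and 7.12 at week 0, and the channel gene TRPM3 rose 23.01-fold. In all, 10 of 17 measured choroid plexus and pigment epithelium genes rose and none fell, with CLIC6 at 10.68 at week 8 and 10.65 at week 0. Of 11 measured melanin genes 10 rose and none fell, at a median of 3.76. TYRP1, TYR, SLC45A2 and OCA2, of melanin synthesis and the melanosome, were below background at week 0 and had bounds of 208-fold, 21.9-fold, 16.5-fold and 5.74-fold. PMEL, the melanosome fibre, read 14.05 at week 8 and 10.29 at week 0 and rose 13.6-fold. Among 13 lens genes 8 rose, CRYM fell 2.70-fold and 4 were not called. The crystallins CRYAA, CRYAB and CRYGS rose at least 125-fold, 15.7-fold and 10.3-fold, and LIM2, a lens fibre membrane protein, at least 3.53-fold, while the fibre membrane gene MIP was below background on both arrays.

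Neuron and neural crest genes formed a further group. Of 25 measured neuron genes 13 rose, UCHL1 fell by 1.32 on the log2 scale and 11 were not called, with a median of 1.52. PRPH, peripherin, of peripheral neurons, read 11.32 at week 8 and rose at least 50.1-fold. NEUROG2, which starts neuron formation, rose 21.3-fold and STMN2 20.3-fold, reading 10.96 at week 8 and 6.62 at week 0. SNAP25 and GAD1, of synapses and of GABA synthesis, rose at least 9.78 and 9.84 times, and TUBB3 2.95-fold. DCX read 9.77 at week 8 and 9.58 at week 0 and was not called. In the glia and neural crest list 7 of 14 rose and ETS1 fell (another probe of ETS1 differed by 0.55), with SNAI2 and TWIST1, factors of migrating crest and mesenchyme, higher by at least 7.79 and 7.59 times. SOX10 of the crest and SOX9 rose 4.92-fold and 6.65-fold, S100B was below background on both arrays, and the forebrain factor FEZF1 rose at least 11.6-fold. HOX genes, which mark the trunk, were near background on both arrays. Of 21 with a named probe 3 were measured, HOXB5, HOXB4 and HOXC6, and none was called. HOXB5 read 5.79 at week 8 and 6.25 at week 0.

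Of 25 measured lysosome and autophagy genes 12 were higher, 13 were not called and none was lower, with a median of 0.98. The membrane glycoproteins LAMP1 and LAMP2 read 11.74 and 10.70 at week 8 and 9.77 and 9.08 at week 0. Further probes of LAMP2 differed by 1.32, 0.998, 0.83 and -0.25, and only the first of these was called. CTSA rose 5.75-fold, TPP1 3.02-fold, NPC2, which moves cholesterol out of lysosomes, 2.68-fold, and the autophagosome protein MAP1LC3A 10.1-fold. In the glycolysis and hypoxia list 12 of 31 rose and 5 fell. TXNIP, which is induced by glucose and slows its uptake, read 13.66 at week 8 and 7.59 at week 0 and rose 67.3-fold, and its relatives ARRDC4 and ARRDC3 rose 7.74-fold and 3.92-fold. ANKRD37 and VEGFA, targets of hypoxia factors, rose 4.91-fold and 5.13-fold and NDRG1, a further one, at least 31.6-fold, yet ADM, another such target, fell 3.71-fold. The transporter SLC2A1 rose 3.19-fold, reading 13.20 at week 8 and 11.53 at week 0, whereas HK1, HK2, PGAM1 and PDK3 fell 2.58-fold, 2.51-fold, 3.46-fold and 4.80-fold. SLC2A3 read 13.26 at week 8 and 13.66 at week 0 and was not called. Of the amino acid transporters, SLC7A3 fell, at 6.71 at week 8 and 10.87 at week 0 (17.9-fold), as did SLC1A5, at 8.16 at week 8 and 10.42 at week 0 (4.80-fold) and SLC7A5, at 9.09 at week 8 and 10.96 at week 0 (3.67-fold), while SLC38A1 and SLC3A2, with differences of -0.85 and -0.38, were not called. SLC40A1, the iron exporter, rose at least 18.3-fold. Of 23 chaperone and unfolded protein genes 4 rose and 6 fell. DDIT3 and HSPA1A rose 4.67-fold and 3.17-fold, while the amino acid response genes CHAC1 and ASNS were lower, CHAC1 by at least 5.85-fold and ASNS by 3.50-fold, and the mitochondrial chaperones HSPD1 and HSPE1 fell 2.66-fold and 2.70-fold.

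Among 17 measured imprinted genes 7 rose, 3 fell and 7 were not called. The non-coding RNA H19 read 12.47 at week 8 and 10.12 at week 0 and rose 5.09-fold, and its neighbour IGF2 rose at least 3.01-fold. PLAGL1 rose at least 5.23-fold and NDN 3.52-fold. KCNQ1OT1, a long non-coding RNA, fell 8.56-fold, and GRB10 and SNRPN fell 2.79-fold and 2.36-fold. DLK1 read 13.01 at week 8 and rose at least 162-fold on its brightest probe, but a further probe differed by -0.22. Among clock genes 2 of 15 rose, CRY2 by at least 195-fold and BHLHE40 by 28.6-fold, and CLOCK and HLF fell 2.91-fold and 2.39-fold.

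The largest changes held further genes of no list. Among the 30 largest increases above background on both arrays were KRTCAP3, which read 12.40 at week 8 and 5.68 at week 0 (105-fold), TMEFF2 (64.5-fold), CPXM1 (34.5-fold), MPZL2, an adhesion protein of epithelium (32.1-fold), ADGRG1, an adhesion receptor (26.8-fold), COLEC11, a lectin of complement (26.6-fold), and NCALD (26.5-fold). EGFL6, a matrix protein, rose 26.3-fold, CLIC5 22.9-fold and PCP4 22.8-fold. Among the 15 largest bounds the chemokine gene CXCL13 was higher by at least 155-fold and DCST2 by at least 96.4-fold. Among the 30 largest decreases were CHFR, a ubiquitin ligase of early mitosis (16.4-fold), AASS, of lysine breakdown (15.2-fold), CBS, of cysteine synthesis (12.4-fold), RBPMS2 (12.3-fold), the helicase gene HELB (11.6-fold) and LIN28B, the paralogue of LIN28A, which read 8.07 at week 8 and 11.59 at week 0 (11.4-fold). The probes of AASS differed by -3.93 and -3.75. SNORA67, a small nucleolar RNA, fell 13.9-fold. The non-coding RNA UCA1 fell at least 31.2-fold, RAB17 at least 30.8-fold, GABRB2 at least 21.03-fold and TRIM71, a repressor of mRNAs in stem cells, at least 38.97-fold.

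Markers of lineages away from the eye surface were read as well. TEK, CLDN5, ESAM and LAPTM5 fell 10.1-fold, 7.69-fold, 2.72-fold and 2.57-fold, and none of 12 measured endothelial and blood genes rose. In the endoderm and liver list 2 of 12 measured genes rose, 3 fell and 7 were not called. TTR, described above, had the largest rise of this list and FOXA2, an endoderm factor, the largest fall. FOXA2 read 5.49 at week 8 and 8.69 at week 0 and fell 9.19-fold, while SOX17, FOXA1 and GATA4 were below background on both arrays. Of 18 measured muscle and cartilage genes 6 rose, 5 fell and 7 were not called. CKM, muscle creatine kinase, fell 11.5-fold, MYOG and MYH3 were above background at week 8 alone without being called (differences of 0.53 and 0.87 or more), and MYOD1 and MYF5 were below background on both. Of 11 measured trophoblast and amnion genes 6 rose, 5 were not called and none fell, at a median of 1.59, which was 0.07 over members above background on both arrays. VTCN1, XAGE2 and CYP19A1 rose at least 27.2-fold, at least 11.7 and 5.54 times, while CGA, CGB5 and HSD3B1 were below background on both arrays.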

How the data were processed

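The 5 arrays were Illumina HT-12 bead arrays read in 1 colour. The deposited signals are bead intensity values on a linear scale, not normalized, per the file headers, with a lowest value of 98.7 at week 8 and 95.9 at week 0, which shows that background was still in them. Each deposited signal has a detection value, a fraction between 0 and 1, and 1 minus that value was taken as the detection p, as it grows with brightness. The series matrix has the authors' processed intensity values, also linear, with column medians of 133.2 at week 8 and 133.1 at week 0. The software and method behind both tables are not given in the sources used here, and no centring was seen.

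Signals of all 5 arrays were background corrected and quantile normalized with neqc of limma 3.58.1 in R 4.3.3 (offset 16, log2). Values below background (detection p not under 0.01) were replaced by that array's lowest above-background value where they lay under it. Later steps used Python 3.11.15, pandas 2.3.3 and numpy 2.4.6. Of 47317 probes, 30110 had 1 gene symbol, 8 had several and 17199 are unnamed here, and 30071 symbols were updated through Entrez identifiers. Each of 20045 genes was read from its brightest probe over the 5 arrays. Simulated arrays were used to test the scripts.

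With 1 array a side, calls are by size and compare those arrays, not conditions. The 51 gene lists and the members named were chosen with earlier results of these data known. Named genes were taken from fixed sets, and not every member of a set is named. These sets were the 30 largest changes each way above background on both arrays, the 15 largest bounds each way, the first 4 members of a list, its 8 largest called members each way, and the members of a count of 5 or fewer. Motif and marker members were named for those results. The authors' processed values, 2 other normalizations, another offset, another detection limit, another probe rule, a filter and a 2-array fit were the alternatives.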

Additional observations from a re-analysis of the deposited data

Results flagged for a closer look

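A signal was present in data outside the comparisons above. The annotation gave no gene symbol for 4244 probes that exceeded background on either array, and 334 of these were higher at week 8 by 2-fold or more and 599 lower. Together 21.98% of these probes passed 2-fold, against 32.2% of the named genes. They have no name here, so what they measure was not analysed here.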

How the results depend on the processing

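No paired analysis was possible because there was 1 array per week. Without background correction 1258 genes were higher and 996 lower, with the authors' processed values 1243 and 944, and over genes above background on both arrays 1369 were higher. The other alternatives kept both counts within 1.5 times of 2068 and 1900. Of the genes called higher or lower, 1238 and 941 shared their call with the authors' values. On the mean of its probes FGFR3 differed by -0.25, and with the authors' values SEPTIN5 differed by -0.40. With 1 array a side there was no error to set a difference against. Dim genes are limited by background, since signals above it were only 2.72 times those below at week 8 and 2.90 times at week 0. Of 290 named genes called (HES3 and CYP26A1 not among them), 258 kept their call under every alternative that measured them. The looser detection limit of 0.05 could not remove a call. Neither could the filter for genes above background on both arrays, which measured 195 of the 290. Without background correction 24 lost their call, with the authors' values 24, with an offset of 50 9 and on the mean of probes 5. Those that lost it in the first 3 cases included ACVR2B, BNC2, COL22A1, COXFA4L2, ESRP2, GLDC, LAMA1, OLFML3 and SKIL, and ACTA1, ARRDC3, CRYM, CXCL6, ESAM, FGF2, HLF, LEFTY1, MBNL1, RARB, RPL22L1 and SPRR1B lost it in the first 2. IGF2, LIM2 and LOX lost it only without background correction, EZH1, PCOLCE2 and SEPTIN5 only with the authors' values, and COX7A2 only with scaling to a common 75th percentile. On the mean of probes the 5 were CDKN2D, ETS1, FGFR3, LAMA1 and LAMP2. Fold sizes depended on the background. Without its correction the fold of 182 of the 290 genes was over 1.5 times smaller, and with the authors' values that of 180, with log2 differences at a median of 0.75 and 0.74 of those reported. Over the 51 lists, 10 and 11 medians moved by over 1.5 times in these settings, and 11 over genes above background on both arrays. No list median of 1.5-fold or more changed direction. Only 3 of 11 measured keratins and 5 of 11 melanin genes were above background on both arrays, and the remaining members on 1 array alone. Without background correction the median was 2.23 for keratins (reported as 3.36), 1.02 for squamous and barrier genes (1.80), 1.67 for collagens (2.56), 0.83 for neuron genes (1.52) and 2.57 for melanin genes (3.76).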

Other observations

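The deposited tables disagreed for SEPTIN5, a septin gene among the 30 largest increases. Its unnormalized signal was 164.1, 829.4, 1160.9, 1027.1 and 1680.1 at weeks 0, 2, 4, 6 and 8, which gave a rise of 24.5-fold. Its processed value from the authors was 187, 147.9, 168.4, 152.4 and 142.2 at the same weeks, a log2 difference of -0.40. This was 1 of 4 probes of 47317 for which the week 8 to week 0 ratios of both tables differed by over 2-fold. On the 5 arrays the tables had a Spearman correlation of 0.999 across probes, which are not independent replicates.

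Of 55 measured snoRNA genes 2 were higher, 12 were lower and the median difference was -0.47, against shares of 17.05% higher and 15.4% lower among 11803 protein-coding genes. Among 201 long non-coding RNAs 25 were higher and 23 lower.

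Of 31 measured antigen presentation and interferon genes 5 rose, 4 fell and 22 were not called. Among complement, cytokine and chemokine genes 8 of 24 rose and 3 fell. CCL2, which draws monocytes, read 10.52 at week 8 and 6.56 at week 0 and rose 15.6-fold, and TNFRSF19, a receptor of epithelial progenitors, read 11.30 at week 8 and 6.45 at week 0 and rose 28.9-fold. CXCL5 and CXCL6, which draw neutrophils, were below background at week 8 and fell at least 9.78 and 3.88 times. Of 22 measured housekeeping genes 3 rose, 4 fell and 15 were not called, with a median of -0.41, and 32.2% of all genes were called. Of these genes ACTB and GAPDH differed by -0.46 and -0.46. HPRT1, often used to scale such data, read 9.04 at week 8 and 10.44 at week 0 and fell 2.65-fold. Of 23 oxidative stress genes 18 were not called, with SELENOP higher by 6.32-fold and PRDX1 lower by 2.88-fold.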
